A study of Caenorhabditis elegans with 8 samples.

Results

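The 8 genes cct-1 to cct-8 encode the subunits of CCT, the cytosolic chaperonin of Caenorhabditis elegans, and were taken from the 17826 genes of the deposited table by gene symbol. All 8 were found and all 8 were among the 12382 genes tested, those whose mean over the libraries was 0 or more in log2 CPM (CPM is reads scaled to the size of the library). CCT, also called TRiC, is a double-ring barrel in which each ring is built from these subunits, and it closes over an unfolded protein and uses ATP to fold it. Its best known substrates are actin and tubulin, which reach it with the help of prefoldin, and several proteins built as beta-propellers. Since every subunit has its own place in the ring, the mRNAs of the subunits are usually studied as a set.

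Wild-type worms (strain N2) exposed to 50 µM zidovudine made up 4 samples, and these were compared with 4 samples of N2 worms exposed to the vehicle DMSO. Zidovudine is an antiretroviral thymidine analogue that blocks reverse transcriptase. Worms of both groups were moved to the drug or vehicle plates at larval stage 4, stayed there for 24 h and were harvested whole on day 1 of adulthood. The treatment protocol is worded alike for all samples and adds 5-fluorouracil, a pyrimidine analogue, to the plates, and this was taken to hold for both groups. Each sample is a pool of whole worms, so fewer cells of a type and less RNA per cell cannot be told apart. Whether each sample was its own culture is not stated in the labels, and the p-values therefore reflect only the spread among these 8 samples.

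Libraries held 30449021 to 56930820 reads assigned to genes. The sample description of DMSO 4 opens with another identifier than those of the other 7 libraries, read here as that of a sequencing run. DMSO 4 had 8.24% of genes at 0 reads, against 1.07% to 2.17% in the others, and run and library cannot be told apart there. Markers of the tissues of an adult hermaphrodite were detected, among them those of intestine, body wall muscle, pharynx, neurons, epidermis and the germ line, as given at the end.

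The CCT subunit mRNAs were abundant and differed little between zidovudine and DMSO. None of the 8 passed the test over all genes (limma-trend, adjusted p under 0.05), none had an unadjusted p under 0.05, and none passed with voom on the reads recovered from the values. Over all tested genes, 0.17% passed the adjusted threshold in limma, 0.17% passed in voom and 11.8% had an unadjusted p under 0.05. Beside these shares a count of 0 among 8 genes is near the background, and the estimates with their intervals are the main measurement. The limma adjusted p of the subunits ran from 0.635 for cct-3 to 0.971 for cct-7. The log2 fold changes, zidovudine minus DMSO, lay between -0.10 and 0.056, with 4 subunits above 0 and 4 below, where 52.3% of all tested genes were above 0 and 47.7% below. Their median was 0.00052, beside 0.0082 over all tested genes. The median size regardless of sign was 0.048 for the subunits and 0.11 for all tested genes. Those include genes at far lower levels than the subunits, and genes of like level were not compared. The smaller size is therefore not shown to be particular to CCT. Across the 8 subunits the 95% intervals reached from a 17.3% lower level for cct-3 to a 17.3% higher one for cct-2. Each subunit's own interval was narrower than this span, such as -13.3% to 4.69% for cct-5, and each included 0. In none of the 8 did the 4 zidovudine libraries lie apart from the 4 DMSO libraries. The groups did not overlap in 6.65% of all tested genes, and beside that share 0 among 8 genes is also near the background.

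cct-1 (WBGene00000377; chromosome II, 8185443 to 8187601 in WBcel235, plus strand) encodes the alpha subunit. It had 8.62, 8.73, 8.88 and 8.88 log2 CPM in zidovudine 1 to 4, against 8.70, 8.86, 8.75 and 8.64 in DMSO 1 to 4. Zidovudine 1 was the lowest library and zidovudine 3 and 4 were the highest, so the DMSO libraries lay within the spread of the drug group. The log2 fold change was 0.042 (SE 0.076, 95% interval -0.12 to 0.20, limma adjusted p = 0.843). A short stretch of its exons, 117 of 1868 nt, is also exon of T05C12.8 on the opposite strand. T05C12.8 had 15 to 61 reads per library and cct-1 at least 13099. How many of the cct-1 reads fall in the shared stretch cannot be told from reads per gene.

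cct-2 (WBGene00000378; chromosome II, 8927741 to 8929815, plus strand) encodes the beta subunit and had 8.44, 8.47, 8.71 and 8.74 log2 CPM with zidovudine, against 8.48, 8.67, 8.57 and 8.43 with DMSO. The zidovudine libraries formed a low pair (1 and 2) and a high pair (3 and 4), with most DMSO libraries in between. Its log2 fold change was the highest of the 8, at 0.056 (SE 0.082, 95% interval -0.12 to 0.23, limma adjusted p = 0.802). cct-4 (WBGene00000379; chromosome II, 8283667 to 8285711, plus strand), for the delta subunit, showed the same order of libraries at its top end. It had 8.55, 8.51, 8.67 and 8.73 log2 CPM with zidovudine, against 8.53, 8.66, 8.55 and 8.50 with DMSO. The difference was 0.055 (SE 0.069, 95% interval -0.093 to 0.20, limma adjusted p = 0.767).

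cct-6 (WBGene00000381; chromosome III, 5853530 to 5855687, minus strand) encodes the zeta subunit. Its levels were 8.40, 8.44, 8.63 and 8.54 log2 CPM with zidovudine, against 8.46, 8.66, 8.48 and 8.36 with DMSO. The lowest and the highest of the 8 libraries were both DMSO libraries, 4 and 2, and the group means were nearly equal (log2 fold change 0.011, SE 0.077, limma adjusted p = 0.966). Its sign turned below 0 when DMSO 4 (-0.032), zidovudine 3 (-0.031), zidovudine 4 (-0.0023) or DMSO 1 (-0.00017) was left out.

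cct-3 (WBGene00018782; chromosome II, 2233540 to 2243539, plus strand), for the gamma subunit, had the lowest log2 fold change of the 8. It had 8.04, 8.30, 8.17 and 8.16 log2 CPM with zidovudine, against 8.13, 8.40, 8.14 and 8.41 with DMSO. DMSO 2 and DMSO 4 stood above all other libraries, while DMSO 1 and DMSO 3 lay among the zidovudine libraries. The log2 fold change of -0.10 (SE 0.081, 95% interval -0.27 to 0.073, limma adjusted p = 0.635) was smaller than the spread between the DMSO libraries (SD 0.16). Without DMSO 4, that is among the libraries with the same run identifier, it was -0.053.

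cct-5 (WBGene00000380; chromosome III, 4499188 to 4508114, minus strand) encodes the epsilon subunit and was the most abundant and the steadiest. It had 9.33, 9.41, 9.39 and 9.47 log2 CPM with zidovudine, against 9.46, 9.52, 9.45 and 9.46 with DMSO. Of the zidovudine libraries, 1, 2 and 3 lay below every DMSO library, and zidovudine 4 lay within the DMSO range. The SD within groups was 0.046, the smallest of the 8, where all tested genes had a median of 0.15 and the subunits one of 0.11. The log2 fold change was -0.070 (SE 0.064, 95% interval -0.21 to 0.066, limma adjusted p = 0.674).

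cct-7 (WBGene00020391; chromosome V, 1872246 to 1875505, plus strand), for the eta subunit, had 8.09, 8.24, 8.35 and 8.34 log2 CPM with zidovudine, against 8.05, 8.38, 8.35 and 8.28 with DMSO. One library in each group, zidovudine 1 and DMSO 1, stood low, and the others of both groups overlapped (log2 fold change -0.010, SE 0.082, limma adjusted p = 0.971). It shares 28 nt of exon with zig-11 on the opposite strand, out of 2259 nt. zig-11 had 2863 to 5090 reads per library and cct-7 at least 9588, and how many of them fall in the shared stretch cannot be told from reads per gene. cct-8 (WBGene00021934; chromosome IV, 1087108 to 1093920, minus strand) encodes the theta subunit and had 8.11, 8.24, 8.27 and 8.24 log2 CPM with zidovudine, against 8.11, 8.34, 8.28 and 8.28 with DMSO. Again zidovudine 1 and DMSO 1 were the low libraries, and the difference was -0.037 (SE 0.068, 95% interval -0.18 to 0.11, limma adjusted p = 0.845). Counting noise was small beside these spreads, since every subunit had at least 8526 reads in every library.

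**Figure D1:**
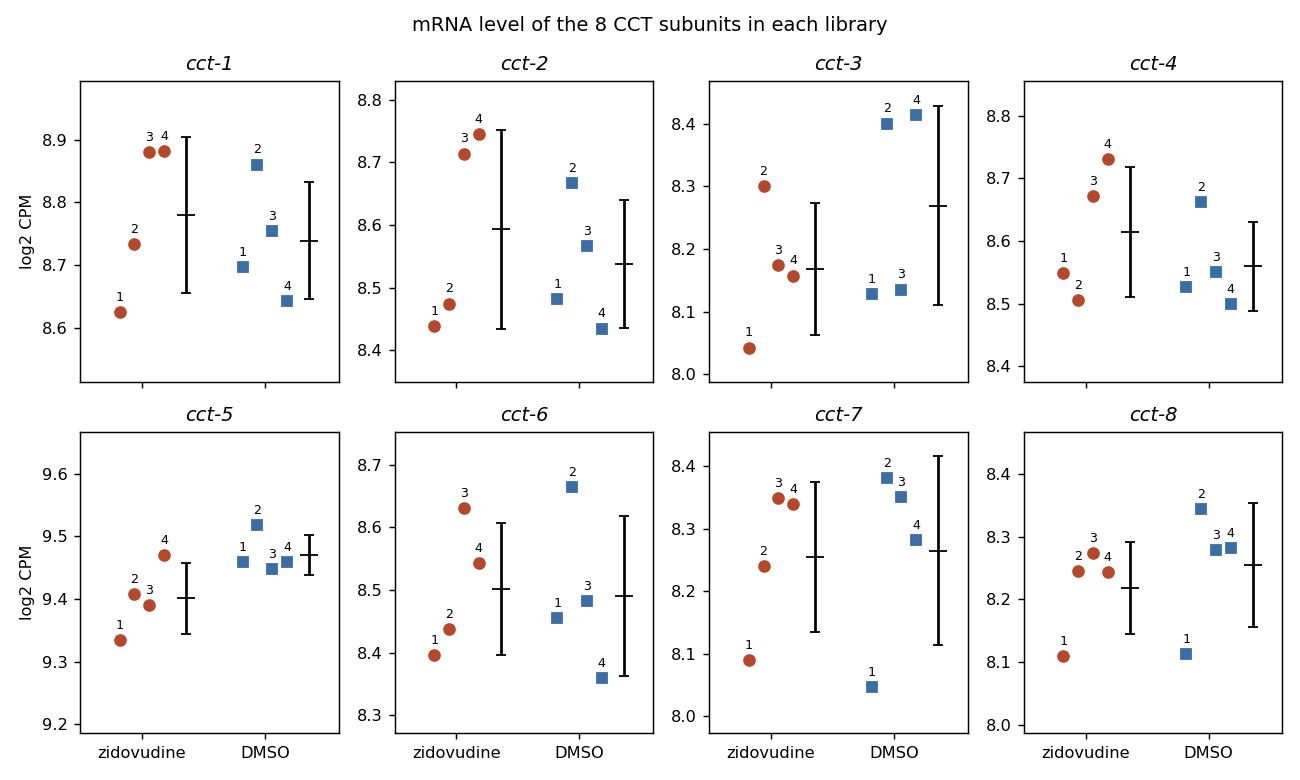
Levels of the 8 subunit mRNAs (log2 CPM, vertical axis, each panel spanning the same range) in the 4 zidovudine and 4 DMSO libraries, numbered by replicate; the bar beside each group is its mean ± SD (n = 4). In every panel the groups overlap, and for cct-5 zidovudine 1, 2 and 3 lie below all DMSO libraries.

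Libraries differed from each other more than the groups did, and the subunits shared much of that difference. The mean over the 8 subunits was 8.45, 8.54, 8.64 and 8.64 log2 CPM in zidovudine 1 to 4, against 8.49, 8.69, 8.57 and 8.55 in DMSO 1 to 4. That is 8.57 ± 0.090 with zidovudine and 8.57 ± 0.083 with DMSO (SD, n = 4 each). In zidovudine 1 all 8 subunits were below their own mean over the 8 libraries, by 0.038 to 0.18. DMSO 2 was its opposite, with all 8 above their own mean, by 0.075 to 0.18. Zidovudine 4 had 7 of the 8 above, with cct-3 the exception, and DMSO 1 had 7 below, with cct-5 the exception. The 8 mRNAs together took 0.301% to 0.323% of the reads assigned to genes with zidovudine and 0.307% to 0.342% with DMSO.

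Within that common movement 2 sets of subunits could be seen, a division made after the values were known and therefore not tested. cct-1, cct-2, cct-4 and cct-6 deviated from their own means alike in zidovudine 3 (mean deviation 0.12 log2 units), zidovudine 4 (0.12) and DMSO 4 (-0.12). In the same libraries cct-3, cct-5, cct-7 and cct-8 had mean deviations of 0.0093, 0.015 and 0.071. These means hide opposite signs, since the subunits ran from -0.045 (cct-5) to 0.089 (cct-7) in zidovudine 3. In zidovudine 4 they ran from -0.061 (cct-3) to 0.079 (cct-7). The sets overlapped in zidovudine 3 and zidovudine 4, where cct-7 (0.089 and 0.079) lay above the lowest of the first 4 (0.084 and 0.047). Only in DMSO 4 did the sets not overlap. The sets were furthest apart in DMSO 4, where each of the first 4 was low and each of the other 4 was above its mean, cct-3 most of all at 0.19. DMSO 4 is also the library with the other run identifier, and the part of the run in this was not tested. The first 4 are compact genes that span 2045 to 2159 nt of the genome, and the other 4 span 3260 to 10000 nt. Whether the span of the genes bears on their levels was not tested.

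**Figure D2:**
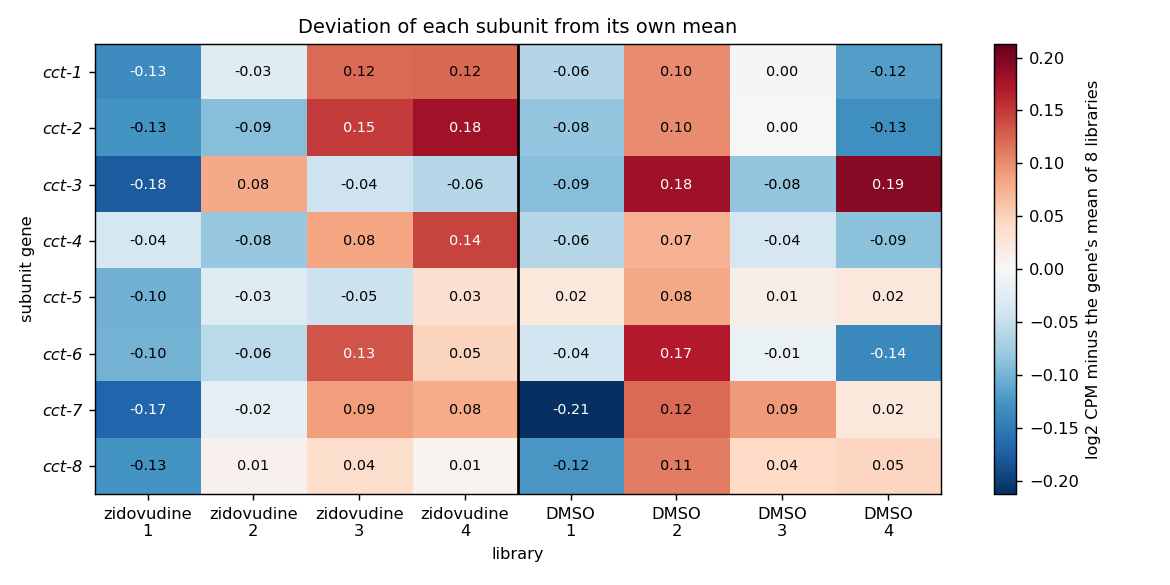
Deviation of each subunit (rows) from its own mean over the 8 libraries (columns, zidovudine left of the line, DMSO right), in log2 units, red above and blue below. Zidovudine 1 is blue in all 8 rows and DMSO 2 red in all 8, while DMSO 4 is blue for cct-1, cct-2, cct-4 and cct-6 and red for cct-3.

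The subunits of a ring are present in equal number in the complex, but their mRNAs were not at equal levels. Per kb of exon, cct-5 averaged 350 ± 14 CPM with zidovudine and 367 ± 8.3 CPM with DMSO (SD, n = 4 each), the highest of the 8. cct-3 was the lowest, with 111 ± 8.1 CPM per kb with zidovudine and 119.1 ± 13 with DMSO. In a single library the highest subunit was 2.78 to 3.39 times the lowest, and cct-5 was 1.89 to 2.25 times the mean of the other 7. Averaged over all 8 libraries, the order of the levels per kb was cct-5 (359), cct-1 (233), cct-4 (208), cct-2 (197), cct-6 (189), cct-7 (136), cct-8 (128) and cct-3 (115). Steps between neighbours in that order exceeded the spread over libraries at 2 places. Per kb of exon cct-5 was 1.54 times cct-1 and cct-6 was 1.39 times cct-7, with no overlap of their ranges. All other neighbours had overlapping ranges over libraries, although cct-1 was above cct-4, cct-4 above cct-2 and cct-8 above cct-3 in each of the 8. cct-2 was above cct-6, and cct-7 above cct-8, in 7 of 8 libraries.

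This order held with and without the drug, and no subunit's share of the summed level separated the groups. cct-5 made up 22.5 ± 0.86% of the summed level per kb with zidovudine and 23.5 ± 0.80% with DMSO. cct-4 came nearest to moving the other way, with 12.9% to 14.0% with zidovudine and 12.8% to 13.3% with DMSO, and cct-2 had 12.9 ± 0.68% with zidovudine and 12.3 ± 0.37% with DMSO. Shares of cct-1 were 14.6% to 15.5% with zidovudine and 14.0% to 14.8% with DMSO. The ranges of the 2 groups overlapped for each of the 8 subunits. Levels per kb depend on the length that is assumed. The annotated exons of cct-3 add up to 2602 nt and those of cct-4 to 1854 nt, while their coding parts are 1629 and 1620 nt. Per kb of coding sequence cct-5 stayed first, and cct-3, cct-7 and cct-8 came close together, at 184, 192 and 184 CPM. The step from cct-5 to cct-1 remained, with 397 CPM or more for cct-5 and 287 or less for cct-1. The ranges of cct-6 (203 to 251 CPM) and cct-7 (165 to 208 CPM) then overlapped, so that step depended on the length used. cct-2 (239 CPM) and cct-4 (238 CPM) also changed places.

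**Figure D3:**
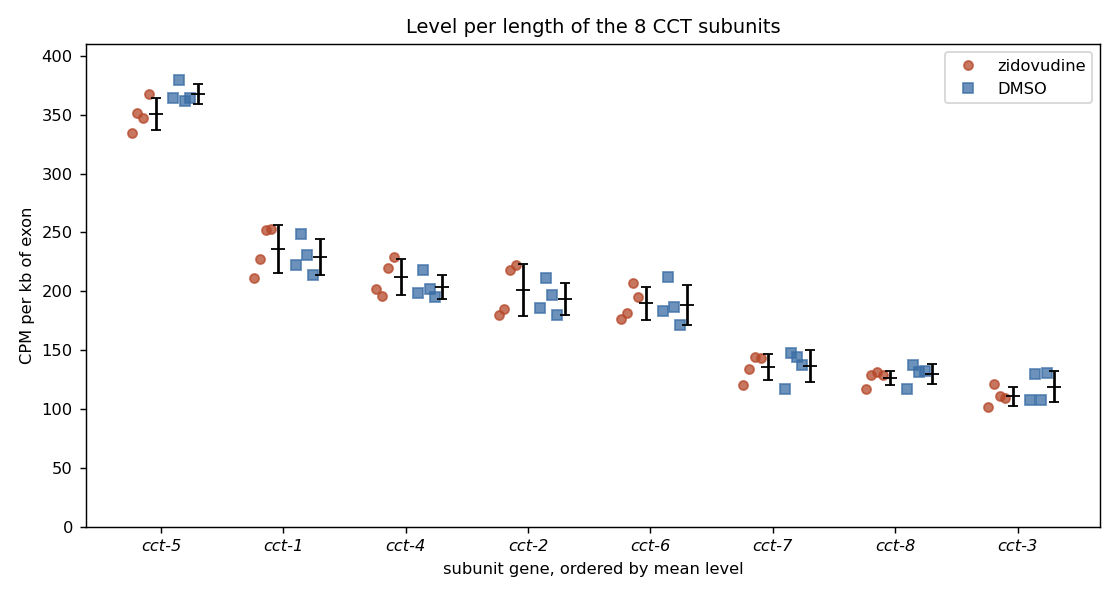
Level of each subunit in CPM per kb of exon (vertical axis from 0), for zidovudine (circles) and DMSO (squares) libraries, with the mean ± SD of each group (n = 4) as a bar; subunits run from the highest to the lowest mean. cct-5 lies between 334 and 380 in every library, above all other subunits, and cct-3 between 101 and 131.

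Prefoldin hands nascent actin and tubulin to CCT, and phosducin-like proteins such as TXDC-9 are known from yeast and mammals to act on the chaperonin. None of the 7 listed genes of prefoldin and this cofactor passed the test. All 7 estimates were negative, as were 47.7% of those over all tested genes, and the median log2 fold change was -0.16. An unadjusted p under 0.05 was found for 2 of the 7, pfd-4 and pfd-6, beside 11.8% of all tested genes, and none passed by voom's adjusted p. pfd-6, for prefoldin subunit 6, had 6.35, 6.54, 6.20 and 6.03 log2 CPM with zidovudine, against 6.75, 6.61, 6.48 and 6.91 with DMSO. Of the zidovudine libraries only zidovudine 2 reached into the DMSO range (log2 fold change -0.41, SE 0.12, limma adjusted p = 0.230). pfd-4 was at -0.54 (SE 0.22, limma adjusted p = 0.406), with zidovudine 2 (6.38 log2 CPM) again inside the DMSO range of 6.16 to 6.74.

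These cofactor mRNAs are short, with 464 to 898 nt of exon, where the CCT subunits have 1854 to 2602 nt. With each library's trend on gene length removed, the median of the 7 was -0.048, with 5 below 0. In that setting pfd-6 was at -0.23 (limma adjusted p = 0.146) and pfd-4 at -0.35 (limma adjusted p = 0.138), estimates closer to 0 with smaller adjusted p. The median of the CCT subunits was -0.036 in that setting, and that of all tested genes was 0.0028. How far the level of short mRNAs in a library makes up the cofactor values was not tested beyond this. The call of pfd-6 also turned on libraries: without DMSO 4 and zidovudine 2 it passed (log2 fold change -0.42, limma adjusted p = 0.0397). Zidovudine 2 is the library that reached into the DMSO range for pfd-6, so leaving it out widens the gap between the groups. Over all tested genes 49 were then called higher and 107 lower, against 7 and 14 with all libraries.

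No tubulin or actin mRNA passed the test. Of 16 tubulin genes, 13 were tested. Their median was 0.062, with 9 positive and 4 negative estimates. The abundant beta-tubulin gene tbb-2 had 10.44 ± 0.12 log2 CPM with zidovudine and 10.36 ± 0.083 with DMSO, and the alpha-tubulin gene tba-2 had 10.07 ± 0.13 with zidovudine and 10.02 ± 0.076 with DMSO (SD, n = 4 each). The smallest p was that of tbb-4, a beta-tubulin of sensory neuron cilia, with 1.35, 1.56, 1.30 and 1.48 log2 CPM with zidovudine, against 1.30, 0.83, 0.68 and 0.76 with DMSO (log2 fold change 0.53, SE 0.20, limma adjusted p = 0.316). DMSO 1 lay among the zidovudine libraries there, and the gene had as few as 47 reads in a library. Neither tbb-4 nor mec-12 (0.30), the other tubulin with an unadjusted p under 0.05, passed over all genes. The 5 actin genes had a median of 0.078, with 4 above 0 and none past the threshold; act-1 had the smallest p (0.14, SE 0.078, limma adjusted p = 0.506). Actin genes resemble each other in sequence, and how reads that match more than 1 of them were counted is not known here. Each single value is therefore uncertain.

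**Figure D4:**
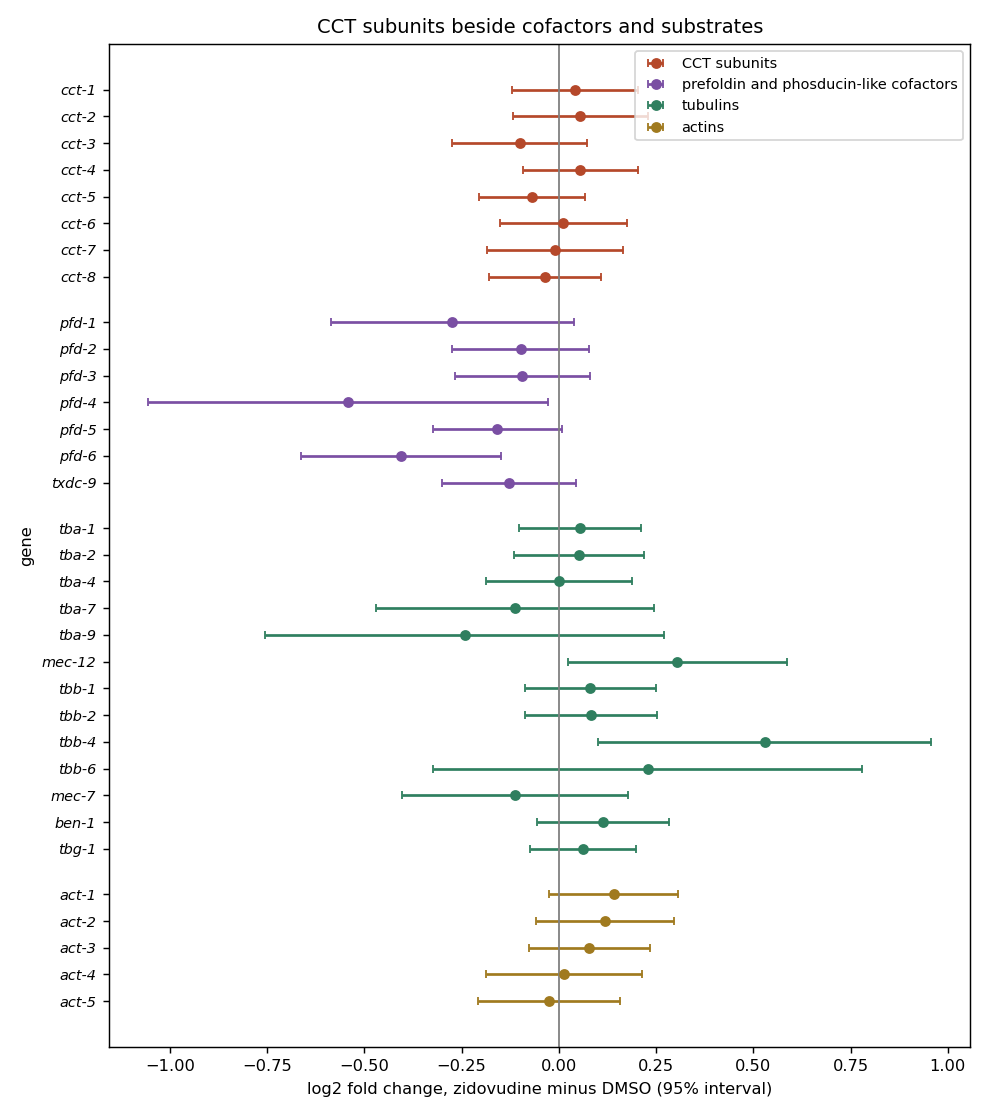
Log2 fold change, zidovudine minus DMSO, with its 95% interval (horizontal axis) for the 8 CCT subunits, the 7 cofactors, the 13 tested tubulins and the 5 actins. The CCT intervals all include 0 and lie between -0.27 and 0.23, and all 7 cofactor estimates are below 0.

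After release from CCT, tubulin is assembled into dimers by its own folding cofactors. Of these 7 genes, including the GTPase gene evl-20, 4 had a positive and 3 a negative estimate (median 0.029). tbcb-1, for cofactor B, had 6.67, 6.72, 6.60 and 6.57 log2 CPM with zidovudine, against 6.73, 6.77, 6.76 and 6.73 with DMSO. All 4 zidovudine libraries were below all 4 DMSO libraries, as in 6.65% of all tested genes, and the difference of -0.11 did not pass (SE 0.058, limma adjusted p = 0.486). Among 6 genes for beta-propeller substrates known from yeast and mammals, among them the cell cycle activator fzy-1 and the G protein subunit gpb-1, 3 had a positive and 3 a negative estimate (median 0.020). mlst-8, for a subunit of the TOR complexes, had the smallest p of these (-0.11, limma adjusted p = 0.502). No gene of either list passed or had an unadjusted p under 0.05.

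In the constitutive Hsp70 and Hsp90 system none of 16 genes passed, and the median was -0.040. Of these, 3 lay above 0 and 13 below, beside 52.3% and 47.7% of all tested genes. With each library's trend on gene length removed, 15 of the 16 were below 0 (median -0.055), where the median of all tested genes was 0.0028. For ahsa-1 the groups of libraries did not overlap, as in 6.65% of all tested genes (-0.12, limma adjusted p = 0.425). hsp-1, the constitutive Hsp70, had 10.88 to 11.16 log2 CPM with zidovudine and 10.95 to 11.09 with DMSO, and hsp-90 had 11.66 ± 0.15 with zidovudine and 11.68 ± 0.031 with DMSO (SD, n = 4 each). The protein phosphatase gene pph-5, a partner of Hsp90, had the smallest p (-0.19, SE 0.072, limma adjusted p = 0.315). It was the only one with an unadjusted p under 0.05, which 11.8% of all tested genes had. hsf-1 encodes the heat shock transcription factor, and its difference was -0.052 (SE 0.062, limma adjusted p = 0.746). The mitochondrial chaperonin, a separate machine related to bacterial GroEL, has 2 genes in the list, hsp-60 and the co-chaperonin gene Y22D7AL.10. hsp-60 had 8.15, 8.29, 8.37 and 8.25 log2 CPM with zidovudine, against 8.10, 8.32, 8.34 and 8.93 with DMSO. Only DMSO 4 stood apart, and the difference of -0.16 (limma adjusted p = 0.706) was 0.0082 without that library.

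Outside the subunits, the genes whose levels followed the mean of the 8 subunits most closely over the 8 libraries were ranked by Pearson correlation among the 12374 other tested genes. The first was eif-3.B, for a subunit of translation initiation factor eIF3 (r = 0.979, Spearman rho = 0.976). It was followed by the cathepsin B-like protease gene cpr-5 (r = 0.959, rho = 0.952), cdap-2 (r = 0.956, rho = 0.929), Y54E2A.4 (r = 0.947, rho = 0.952) and eif-2gamma, for a subunit of eIF2 (r = 0.946, rho = 0.952). Without zidovudine 1 and DMSO 2, the libraries farthest from the median of the subunits' mean, r was 0.948 for eif-3.B, 0.984 for cpr-5, 0.943 for cdap-2, 0.971 for Y54E2A.4 and 0.856 for eif-2gamma. These genes were picked as the highest of many, the points share library and depth, and the values only describe these 8 libraries. None of them passed the test between the groups, and their log2 fold changes were -0.016 to 0.013.

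Markers of several tissues and stages had larger differences than the subunits, though none passed the threshold with the settings as reported. Over all tested genes 52.3% were above 0, 47.7% were below 0 and 11.8% had an unadjusted p under 0.05, and the counts of each list stand beside these shares. Pharynx markers were all above 0 (5 of 5, median 0.41), and their summed level was 141.96 to 173 CPM with zidovudine and 116 to 132 with DMSO. In this list 4 of 5 had an unadjusted p under 0.05, and myo-2, a pharyngeal myosin, was at 0.41 (limma adjusted p = 0.0789). myo-2 passed without DMSO 4 (limma adjusted p = 0.0427), without DMSO 4 and zidovudine 2 (0.0172) and with sample quality weights (0.0121). Other settings took it further from the threshold. Its limma adjusted p was 0.265 without zidovudine 4, 0.230 without the variance trend and 0.151 with the replicate block. The 4 late embryo markers were also above 0 (median 0.38, 4 of 4 with an unadjusted p under 0.05). Their summed levels were 92.0 to 111 CPM with zidovudine and 73.6 to 84.4 with DMSO. In this list fbn-1 was at 0.45 (limma adjusted p = 0.0967). The limma adjusted p of fbn-1 was 0.0258 with quality weights and 0.311 without zidovudine 3. Of 8 sperm markers 6 were tested and all 6 were below 0 (median -0.32; summed levels of 29.4 to 38.6 CPM with zidovudine, 40.3 to 48.6 with DMSO), with msp-31 at -0.54, a gene with near-identical copies. All 4 epidermis markers were below 0 (median -0.27; summed levels of 587 to 617 CPM with zidovudine, 590 to 776 with DMSO), with rol-6 at -0.54. All 6 intestine markers (median 0.17; ifb-2 at 0.22), all 5 of body wall muscle (0.15; unc-22 at 0.22), all 5 of neurons (0.22; unc-104 at 0.25) and all 5 of oocytes (0.12; oma-1 at 0.16) were above 0. For ifb-2 the limma adjusted p was 0.0497 without DMSO 4 and zidovudine 2, where it passed, and 0.682 without zidovudine 3. The summed levels of the groups overlapped in these 4 lists, with 19679 to 26771 CPM with zidovudine and 19940 to 24316 with DMSO for intestine, 2324 to 2998 and 2148 to 2599 for body wall muscle, 243 to 284 and 234 to 259 for neurons, and 4045 to 4892 and 3620 to 4364 for oocytes. The mean log2 CPM of the 5 neuron markers, in which each gene counts equally, did not overlap, with 4.07 to 4.20 with zidovudine and 3.95 to 3.98 with DMSO. Germ line markers were even (4 of 7 above 0, median 0.0054; summed levels of 2726 to 3220 CPM with zidovudine, 2777 to 3041 with DMSO), with glh-1 at -0.14.

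Some marker values also depended on gene length. With each library's trend on length removed, the median of all tested genes was 0.0028. The median of the body wall muscle markers was 0.028 in that setting, with 1 of 5 below 0, and unc-22 was at 0.028. Of the intestine markers 2 of 6 were then below 0, the vitellogenin genes vit-2 (-0.034) and vit-6 (-0.056). msp-31, with 384 nt of exon, was at -0.23 (limma adjusted p = 0.404). In the germ line list 5 of 7 were below 0 (median -0.036). The pharynx median was 0.31 and the late embryo median 0.29, with every member of both lists above 0, and the sperm median was -0.22 and the epidermis median -0.29, with every tested member of both below 0. No marker in these lists was at 0 reads in any library, and their part in the values of the CCT subunits was not tested.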

How the data were processed

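Polyadenylated RNA of whole worms was sequenced, 4 samples with zidovudine and 4 with DMSO, 1 library each. The authors deposited log2 CPM per gene (the headers say CPM, but values fall below 0). Tools listed in the submitters' processing notes, with no roles, are limma 3.40.6, edgeR 3.26.8, HTSeq 0.11.0, HISAT2 2.1.0, Trimmomatic 0.32 and FastQC. The kit was directional per the labels, but neither the strand setting of the counting nor build and annotation is given in the sources used here. On the linear scale 100% of values above a common floor were whole multiples of 1 read within 0.05 reads, which gave reads per gene.

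The whole table was fitted with limma-trend (limma 3.58.1, R 4.3.3, robust, two-sided, group as the only term, 6 residual degrees of freedom), with Benjamini-Hochberg adjustment over 12382 genes. A log2 fold change is zidovudine minus DMSO. Positions and gene models are those of WBcel235 in Ensembl release 115, matched by ID, and lengths are unions of exons. Levels per kb divide CPM by that length. The scripts were tested on simulated data. No 2 libraries of a group agreed within counting noise (chi-square of 14.1 or more per degree of freedom).

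Named genes were the 8 subunits, hsf-1, the 5 genes most correlated with the subunits' mean, and in each list the member with the smallest p where none passed; others were named after their values were seen. Members and lists were chosen with earlier results of these data known. daf-21 was looked up as hsp-90. Protein and promoter sequences were not analysed here. Alternatives were other scalings, filters, variance models and priors, voom, a replicate block, a length correction, leaving out libraries, a stricter threshold and the coding length.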

Additional observations from a re-analysis of the deposited data

Results flagged for a closer look

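Among the 30 genes named by rule, in 60 groups of 4 libraries, 1 value stood far from the others of its group. cct-5 in DMSO 2 was at 9.52 log2 CPM, where the other DMSO libraries lay between 9.45 and 9.46. Its gap to the nearest library was 0.845 of the group's range, above Dixon's 95% critical value for 4 samples. Chance flags about 1 in 20 such groups. All 8 subunits were above their own mean in DMSO 2, and without that library the log2 fold change of cct-5 was -0.054.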

How the results depend on the processing

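No CCT subunit passed the threshold in any of the 21 settings fitted, nor at an adjusted p under 0.01, and the lowest limma adjusted p of a subunit was 0.373 (cct-3, without zidovudine 2). An unadjusted p under 0.05 was found for 1 subunit in 1 setting, cct-3 with the replicate block and the length trend removed (-0.15, limma adjusted p = 0.446). The median of the 8 ranged from -0.037 to 0.049. cct-1, cct-2 and cct-4 were above 0, and cct-3, cct-5 and cct-8 below, in all 21. The settings refit the same libraries, and those of filter, variance trend and replicate block leave the estimates unchanged. Equal signs are therefore not separate evidence of a direction. Some estimates were close to 0, with cct-2 as low as 0.0049 and cct-8 as high as -0.00042. cct-6 was below 0 with quantile normalization (-0.011), sample quality weights (-0.0040), the length trend removed with and without the replicate block (-0.021), and without DMSO 4 and zidovudine 2 (-0.011); leaving out 1 library gave -0.032 to 0.070, and for cct-7 -0.083 to 0.044. The cause was not tested. The 21 calls over all genes (7 higher, 14 lower) became 13 with quantile normalization (6 higher, 7 lower), 4 without the variance trend, 148 with quality weights, 156 without DMSO 4 and zidovudine 2, 5 at the stricter threshold and 4 to 41 when 1 library was left out. Of the genes in the other lists, none passed with the settings as reported, 5 did with quality weights (fbn-1, hch-1, myo-1, myo-2, tnt-4) and 5 without DMSO 4 and zidovudine 2 (ifb-2, myo-1, myo-2, pfd-6, tnt-4), and 0 to 1 with 1 library left out. hsp-60 ranged from -0.27 to 0.0082 with 1 library left out. Of the genes most correlated with the subunits, Y54E2A.4 was at -0.0043 with quantile normalization and -0.089 with the length trend removed, with or without the block, cdap-2 at -0.0021 with quality weights, -0.045 with the length trend removed, with or without the block, and -0.00013 without DMSO 4 and zidovudine 2, where cpr-5 was at 0.0046. With 1 library left out they ranged from -0.031 to 0.023 (eif-3.B), -0.12 to 0.12 (cpr-5), -0.025 to 0.035 (cdap-2), -0.026 to 0.076 (Y54E2A.4) and -0.051 to 0.028 (eif-2gamma).

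No pairing by replicate number was visible: deviations of same-numbered libraries correlated at 0.067, -0.18, 0.14 and -0.32 over 12382 genes, and not every library correlated best with its own number. With 4 libraries per group, each measured from the mean of its group, this check cannot exclude a pairing. With the replicate block 9 genes passed and no CCT subunit. Per kb of coding sequence the levels were 264 CPM for cct-1, 239 for cct-2, 184 for cct-3, 238 for cct-4, 426 for cct-5, 224 for cct-6, 192 for cct-7 and 184 for cct-8.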
